A study of Mus musculus with 5 samples.

Results

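Complex I, or NADH dehydrogenase, is the entry point of the respiratory chain. Its matrix arm takes electrons from NADH and passes them over a flavin and a row of iron-sulfur clusters to ubiquinone, and its membrane arm pumps protons that drive ATP synthesis. Heart muscle holds much of it, and in reperfused tissue the enzyme is known as a source of superoxide. The structural subunits come partly from nuclear genes, named Nduf with a letter and a number, and partly from mitochondrial DNA. The nuclear genes were compared here between heart grafts with and without prolonged cold storage. They were chosen by name, as probe sets with 1 gene symbol made of Nduf, then a, ab, b, c, s or v, then a number. Where a gene had several probe sets the brightest was taken. This gave 35 genes of 19938 with a single symbol. Ndufb1 was not analysed here, and neither was Ndufb4, whose probe sets carry a second symbol.

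All animals were C57BL/6 mice, which the methods describe as bought when young adults. Donor hearts of the I/R group (grafts 2553, 2555 and 2557, n = 3) lay for 18 h at 4 °C in University of Wisconsin (UW) solution before they were implanted into the abdomen of recipients of the same strain, and those of the non-I/R group (2554 and 2556, n = 2) were implanted without it. Labels put the harvest at 24 h, while the text of the study gives a later day for the expression arrays. A treatment text on the storage is repeated for all 5 samples, so groups were taken from the source names. Each graft was put on 1 Mouse Gene ST array, and both groups share the surgery and the reperfusion. Nothing names pooled animals or separate batches, so the tests measure how far these samples scatter, which may be technical. In whole grafts, fewer muscle cells and less RNA per cell cannot be told apart.

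All 35 subunit genes had lower mean signals in the I/R grafts, and in all 35 the highest I/R graft was under the lowest non-I/R graft. The log2 fold change, I/R minus non-I/R of signals summarised by RMA (robust multi-array average), ran from -0.75 for Ndufa5 to -0.29 for Ndufa7 with a median of -0.54, so that mean signals were lower by 18.3% to 40.6%. Over all 21789 probe sets tested the median was -0.01, 54.4% had a lower mean, and 16.2% had the groups apart in this way. At an unadjusted p under 0.05 from limma, the level that the methods of the study set for significance, 23 of the 35 were lower and 0 were higher. Of all probe sets, 7.35% were lower at this threshold. All 35 had a mean log2 value of at least 8. In a fit of such probe sets alone, 30 of the 35 and 12.9% of all were lower at this threshold. A mean lower by at least 1.5-fold was seen for 15 of the 35, against 4.45% of all. The gene lists of the study also required a change of at least 2-fold, and 0 of the 35 were lower by 2-fold. After Benjamini-Hochberg adjustment over all probe sets none passed 0.05 (limma, lowest adjusted p 0.282 among the subunits and 0.18 among all), and the test named in the methods gave 12 subunits unadjusted and 0 adjusted. With 1 I/R graft left out, the unadjusted count by limma was 10 (2553 left out), 18 (2557) or 24 (2555). Because the groups did not overlap in any of the 35, leaving out a graft could not reverse a lower mean. Of all probe sets, 4.52% were lower at the unadjusted threshold with the test named in the methods. The share was 6.77%, 4.78% or 5.76% by limma with 2553, 2557 or 2555 left out. Without 2554 or 2556 the non-I/R group is 1 graft, which is assumed to vary like the I/R grafts, so no counts are given. The median log2 fold change of the subunits was -0.48 without 2554 and -0.63 without 2556. The cause of the lower counts was not tested.

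**Figure D1:**
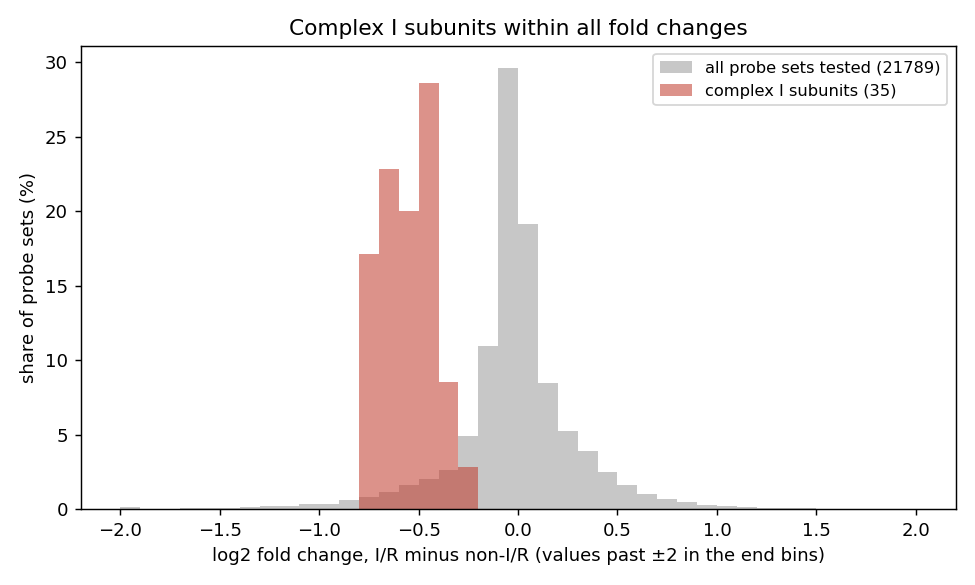
Share of probe sets (y axis, in %) against their log2 fold change (x axis, 3 I/R grafts minus 2 non-I/R grafts), in grey for the 21789 probe sets tested and in red for the 35 complex I subunits. The red values run from -0.75 to -0.29, on the lower side of the grey peak, whose median is -0.01.

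The subunits shared the order of the grafts as well as the direction. In 22 of the 35 the order from high to low was 2554, 2556, 2557, 2553 and 2555, and in 11 more only 2553 and 2557 changed places. Graft 2554 was highest and 2555 lowest in 33 of 35, or 94.3%, against 12.6% of all probe sets. The exceptions were Ndufb2, in which the non-I/R grafts were both at 9.51, and Ndufa7, in which 2553 was the lowest. Averaged over the 35, the deviation from the mean of each gene was 0.42 in 2554 and 0.24 in 2556, and it was -0.12, -0.48 and -0.06 in 2553, 2555 and 2557. This order was not particular to complex I. Averages over the nuclear subunits of complexes II and III, IV and V and over markers of heart muscle had it too. They ran from 0.41 in 2554 to -0.44 in 2555 for complexes II and III, and from 0.37 to -0.33 for complex V. Spread within the I/R group was wide beside the group difference. The I/R range of a subunit was 0.45 at the median and exceeded the group difference in 8 subunits, and the gap between the non-I/R grafts had a median of 0.15 and exceeded it in 1, Ndufv3. The lowest non-I/R graft stood above the highest I/R graft by 0.07 (Ndufv3) to 0.49 (Ndufs3). None of the 35 had tied values, which 11715 of all probe sets had.

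**Figure D2:**
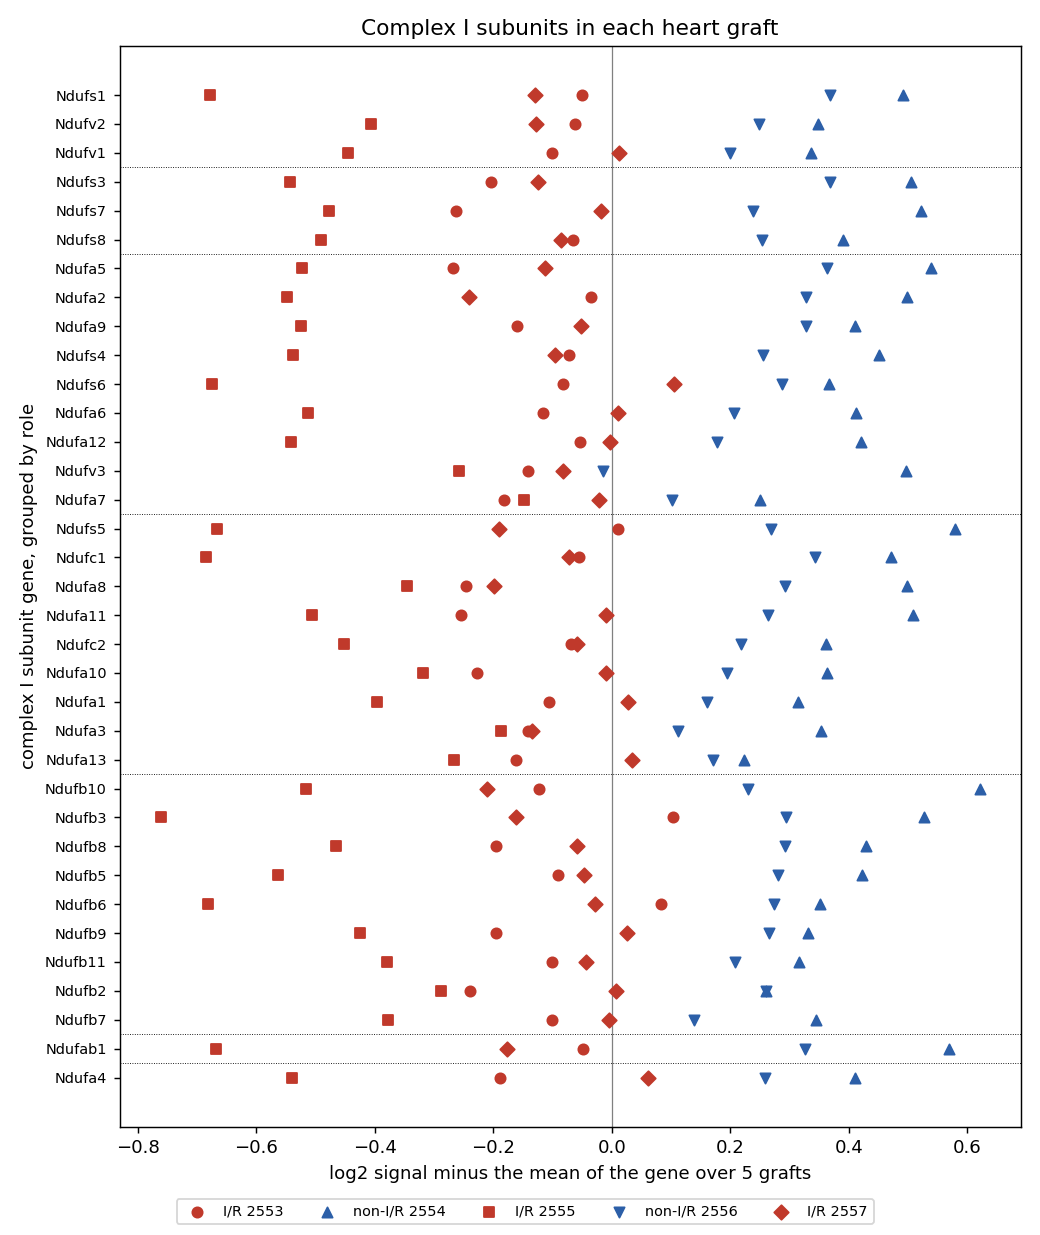
Log2 signal of each complex I subunit gene in each graft, minus the mean of that gene over the 5 grafts (x axis), with genes on the y axis in groups of like role divided by dotted lines. Red marks are I/R (n = 3) and blue marks non-I/R grafts (n = 2), and in every row the red marks lie to the left of the blue ones, with 2555 (square) leftmost in all rows but that of Ndufa7.

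Promoters of genes that lay together in every graft were searched for the letters of factors known to act on genes of the respiratory chain. The promoters came from RefSeq (GRCm38.p6), from 250 bases before to 50 after the transcript start, and 32 of the 35 genes matched. The letters AAGATGGC, bound by YY1, were found on either strand in 7 of 32 genes (21.9%), against 3.57% of 17492 protein-coding genes with a promoter of the same length. In all 7 they ran forward and began 23 to 39 bases after the first base of the transcript, counted as 1. The stretch from 20 to 40 was set after these positions were seen, and 1.02% of the protein-coding genes had a match that began in it. No match overlapped one of the other motifs. The letters contain ATG, the start codon, and whether these matches lie at translation starts was not tested. Nor were the protein-coding genes matched for the distance from transcript start to start codon. The sites are shown because they share both letters and place, with the match in capitals inside a window of 30 bases.
Ndufs7: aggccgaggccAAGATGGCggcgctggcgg
Ndufs4: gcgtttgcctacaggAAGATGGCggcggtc
Ndufs6: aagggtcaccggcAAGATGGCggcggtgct
Ndufa9: cattgtgggagAAGATGGCggccgccgtcc
Ndufa3: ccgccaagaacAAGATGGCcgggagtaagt
Ndufc1: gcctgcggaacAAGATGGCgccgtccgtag
Ndufb8: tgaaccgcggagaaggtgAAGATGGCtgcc

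These windows lie at chr10:80249462-80249491 on the plus strand for Ndufs7 and chr7:3617384-3617413 on the plus strand for Ndufa3. On the minus strand are chr13:114388045-114388074 for Ndufs4, chr13:73328433-73328462 for Ndufs6, chr6:126849097-126849126 for Ndufa9, chr3:51408915-51408944 for Ndufc1 and chr19:44555393-44555422 for Ndufb8. They reach from the first bases of the transcript inward, and the genes span core, matrix arm and membrane arm subunits. Log2 fold changes of the 7 ran from -0.68 for Ndufc1 to -0.39 for Ndufa3, inside the range of -0.75 to -0.29 of those without the letters. A match is a run of letters and not a measured site.

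The letters GCGCATGC, the core of the palindrome bound by NRF-1, were found in 3 of 32 genes (9.38%, against 3.94% of protein-coding genes). The match ended at position -1, next to the transcript start, in Ndufa8 and began at -83 in Ndufa6, and in Ndufa11 matches on both strands overlapped, from -60 and -58. The 3 windows show 1 match each in capitals, for Ndufa11 that from -60. In Ndufa8 and Ndufa6 the match is on the opposite strand and reads GCATGCGC. The windows lie at chr2:36049328-36049357 (minus strand), chr15:82354356-82354385 (minus strand) and chr17:56717691-56717720 (plus strand).
Ndufa8: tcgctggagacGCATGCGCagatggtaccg
Ndufa6: tccgcggtagaGCATGCGCattgcagagcc
Ndufa11: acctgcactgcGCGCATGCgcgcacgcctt

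Other motifs were about as frequent as in protein-coding genes at large. The ETS letters CCGGAAG, which GABP binds, were found in 4 of 32 (12.5%, against 12.9%), the ERR letters AAGGTCA in 2 (6.25%, against 4.73%) and the Sp1 letters GGGCGG in 14 (43.8%, against 49.2%). Ndufs3 held 2 ETS matches, 1 on each side of the transcript start, and the promoter of this core subunit is shown whole, at chr2:90904672-90904971 on the minus strand, with ETS and Sp1 letters in capitals. An Sp1 and an ETS match overlap in it.
Ndufs3: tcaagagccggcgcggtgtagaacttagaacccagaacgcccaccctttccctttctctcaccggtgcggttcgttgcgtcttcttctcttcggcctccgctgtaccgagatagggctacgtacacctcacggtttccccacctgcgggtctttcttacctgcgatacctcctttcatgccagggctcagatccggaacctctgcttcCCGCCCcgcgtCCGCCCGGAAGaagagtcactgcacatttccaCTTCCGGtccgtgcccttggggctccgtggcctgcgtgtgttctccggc

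**Figure D3:**
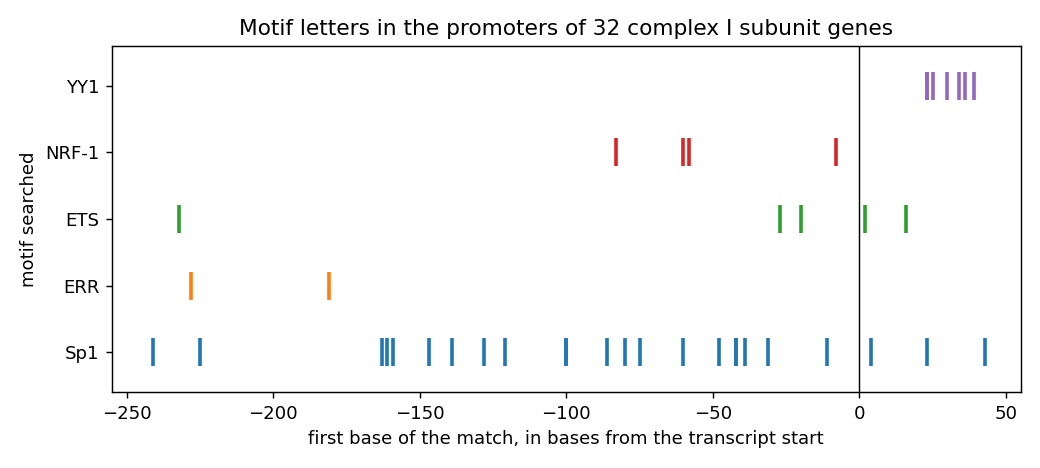
First base of each match, in bases from the transcript start (x axis; vertical line at the start), for 5 motifs (y axis) searched on both strands in the promoters of 32 complex I subunit genes. The 7 YY1 matches lie between 23 and 39 bases after the start, while the Sp1 matches are spread along the window.

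Core subunits that oxidise NADH at the tip of the matrix arm were lower in the I/R grafts. Signals are given for non-I/R 2554 and 2556 and then for I/R 2553, 2555 and 2557, as RMA values on the log2 scale. Ndufs1, the largest core subunit and a carrier of iron-sulfur clusters, was at 11.65 and 11.52 without storage and at 11.10, 10.48 and 11.02 after it. Its log2 fold change was -0.72 (SE 0.23, adjusted p = 0.314 by limma). The I/R grafts did not overlap the others, although 2555 lay 0.63 below 2553. Ndufv2, which holds a cluster next to the flavin, was at 12.45 and 12.35 against 12.04, 11.70 and 11.98, so that the log2 fold change was -0.50 (SE 0.13, adjusted p = 0.286 by limma). Ndufv1 binds NADH and the flavin itself. Its signals were 11.97 and 11.84 against 11.54, 11.19 and 11.65, so that the log2 fold change was -0.45 (SE 0.16), and it missed the unadjusted threshold (adjusted p = 0.343 by limma).

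Core subunits that hand electrons to ubiquinone were lower as well, and the 3 described here passed the unadjusted threshold. Ndufs3, which joins the parts of the matrix arm, had signals of 11.88 and 11.74 in the non-I/R grafts and of 11.17, 10.83 and 11.25 after storage. The log2 fold change was thus -0.73 (SE 0.15, adjusted p = 0.284 by limma), with the widest gap between the groups of all 35. A second probe set of Ndufs3 was at -0.74 (SE 0.17). Ndufs7 carries the last cluster before ubiquinone and was at 13.24 and 12.95 against 12.45, 12.24 and 12.70, which made the log2 fold change -0.63 (SE 0.18, adjusted p = 0.294 by limma). Signals of different probe sets were not ranked, since they do not order genes by RNA amount. For Ndufs8, a carrier of clusters beside the membrane, values of 11.90 and 11.77 stood against 11.45, 11.02 and 11.43, which made the log2 fold change -0.54 (SE 0.17, adjusted p = 0.308 by limma).

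Accessory subunits surround the core and hold the enzyme together. Of 9 in the matrix arm, 5 passed the unadjusted threshold and the median log2 fold change was -0.54. This group held both the lowest and the highest of all fold changes. Ndufa5 was at 10.58 and 10.40 in the non-I/R grafts and at 9.77, 9.52 and 9.93 in the I/R grafts, which made the log2 fold change -0.75 (SE 0.15, adjusted p = 0.282 by limma). Ndufa7 was at 10.09 and 9.94 against 9.66, 9.69 and 9.82, which made the log2 fold change -0.29 (SE 0.076, adjusted p = 0.29 by limma). Grafts of Ndufa7 lay close together and its small difference passed the unadjusted threshold, whereas Ndufs6, a zinc-binding subunit, had -0.54 (SE 0.27, adjusted p = 0.438 by limma) with I/R signals spread from 10.00 to 10.78 and did not pass. Between Ndufa5 and Ndufa7 lay Ndufa2 with -0.69 (SE 0.18), the dinucleotide-binding Ndufa9 with -0.61 (SE 0.17) and Ndufs4, whose loss causes a Leigh-like disease in mice, with -0.59 (SE 0.19). Ndufv3 had 9.17 in 2554 and 8.66 in 2556, with I/R signals up to 8.59, and its log2 fold change of -0.40 (SE 0.18, adjusted p = 0.41 by limma) missed the threshold. Ndufa6 and Ndufa12, with -0.52 (SE 0.19) and -0.50 (SE 0.21), also missed the threshold.

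In the membrane arm, 6 of 9 subunits near the matrix arm and 6 of 9 near the far end passed the unadjusted threshold, with medians of -0.48 and -0.52. Ndufa8 is a subunit of the intermembrane space side with paired cysteine motifs, and its signals were 11.56 and 11.35 against 10.82, 10.72 and 10.86. Its log2 fold change of -0.66 (SE 0.086) had the smallest p of the 35 (adjusted p = 0.282 by limma), and the I/R grafts lay within 0.15 of each other. Ndufs5, built in the same way, had a similar change of -0.71 (SE 0.25) but missed the unadjusted threshold (adjusted p = 0.336 by limma), since its I/R signals of 8.90, 8.23 and 8.70 were more scattered below 9.47 and 9.16. Ndufc1 likewise had -0.68 (SE 0.24, adjusted p = 0.335 by limma), and its second probe set had -0.64 (SE 0.20, adjusted p = 0.306 by limma). The smallest change near the matrix arm was that of Ndufa13, also known as GRIM-19, at 11.12 and 11.07 against 10.74, 10.63 and 10.93, so that the log2 fold change was -0.33 (SE 0.10, adjusted p = 0.313 by limma). Ndufa3 was the tightest of all, with 11.61, 11.57 and 11.62 in the I/R grafts below 12.10 and 11.86.

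Toward the far end, Ndufb10 had the largest change, at 9.42 and 9.03 against 8.67, 8.28 and 8.59, so that the log2 fold change was -0.71 (SE 0.19, adjusted p = 0.29 by limma). Ndufb8 had the smallest p there, at 11.04 and 10.90 against 10.42, 10.15 and 10.55, for -0.60 (SE 0.15, adjusted p = 0.286 by limma). In both, 2555 was the lowest graft and 2554 the highest. Ndufb7 had the smallest change, at 10.45 and 10.25 against 10.01, 9.73 and 10.10, so that the log2 fold change was -0.40 (SE 0.15, adjusted p = 0.339 by limma). The most scattered I/R signals were those of Ndufb3, at 8.30, 7.43 and 8.03 below 8.72 and 8.49, so that -0.68 (SE 0.30, adjusted p = 0.406 by limma) did not pass. Ndufb6 had the largest p of the 35, with -0.52 (SE 0.27, adjusted p = 0.454 by limma), and its I/R signals of 12.17, 11.41 and 12.06 again set 2555 apart.

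Ndufab1 is the acyl carrier protein of mitochondria, which binds the enzyme at more than 1 place and also serves lipoic acid synthesis. It was at 11.24 and 11.00 in the non-I/R grafts and at 10.62, 10.00 and 10.49 in the I/R grafts, which made the log2 fold change -0.74 (SE 0.23, adjusted p = 0.308 by limma), and its second probe set had -0.71 (SE 0.25). The subunits with the LYR motif that bind such carriers, Ndufa6 and Ndufb9, had -0.52 (SE 0.19) and -0.50 (SE 0.15). Ndufa4 was first named as a complex I subunit and later placed in complex IV. Its signals of 12.01 and 11.86 against 11.41, 11.06 and 11.66 gave -0.56 (SE 0.21, adjusted p = 0.344 by limma), and without it the median of the other 34 was -0.54. Its paralog Ndufa4l2, a gene that hypoxia is known to induce, is not among the 35 and was at 7.40 and 7.21 against 7.08, 6.95 and 6.98, so that the log2 fold change was -0.30 (SE 0.078, adjusted p = 0.29 by limma). In 5 genes a second probe set was present, and in each of them it too had all I/R grafts below the non-I/R grafts, with Ndufa11 at -0.64 and -0.55 and Ndufb11 at -0.44 from both. Near-identical copies elsewhere in the genome could share probes with such genes, which was not tested.

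**Figure D4:**
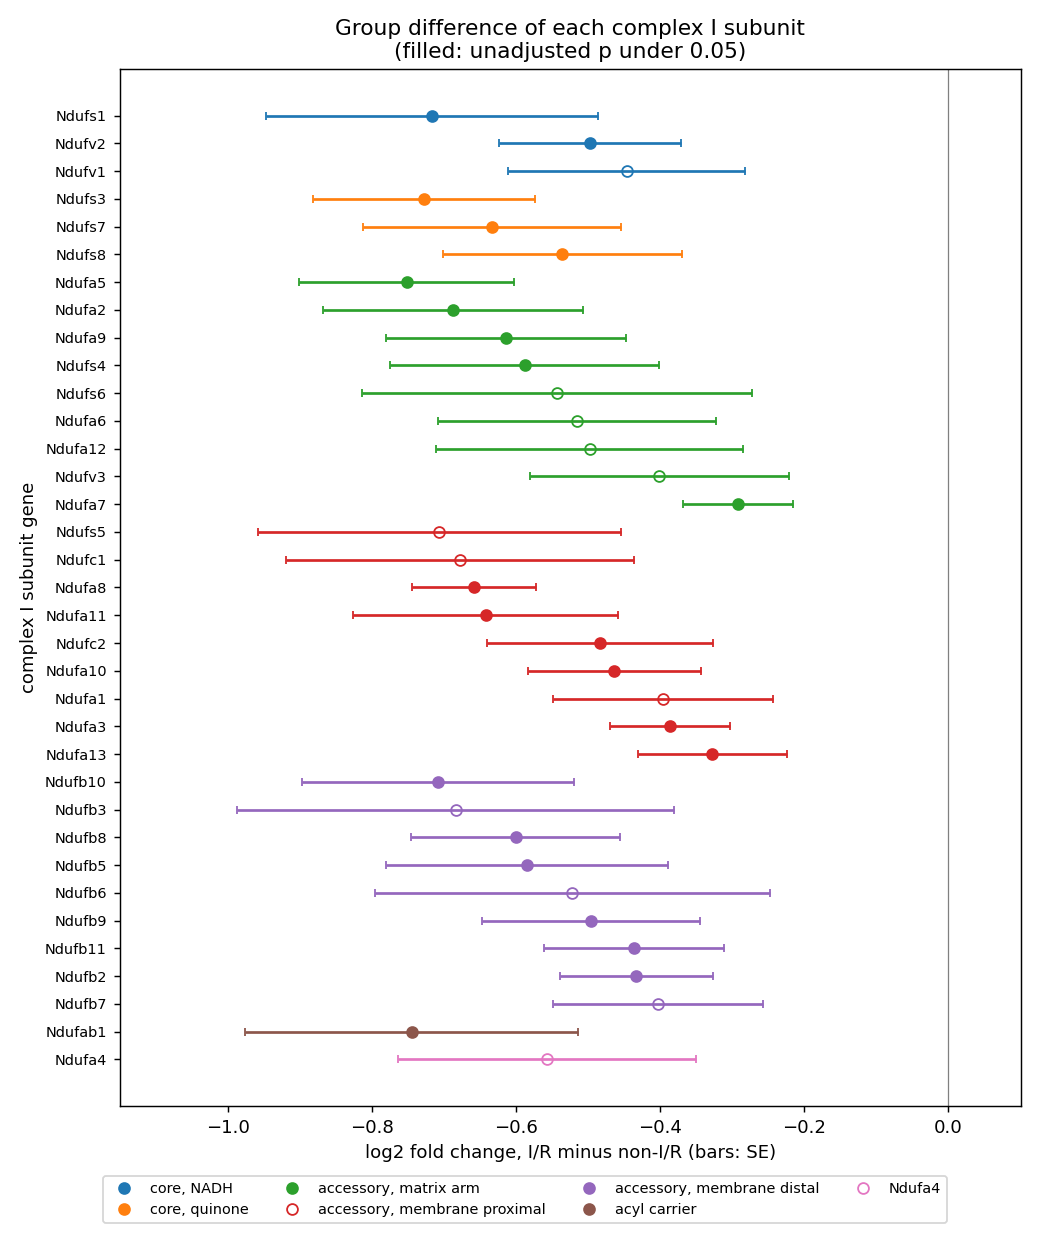
Log2 fold change of each complex I subunit gene (x axis, 3 I/R grafts minus 2 non-I/R grafts, bars are the SE from limma), with genes on the y axis coloured by role. Filled circles passed an unadjusted p under 0.05 and open ones did not, and all 35 lie left of 0, from Ndufa5 at -0.75 to Ndufa7 at -0.29.

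Proteins that build complex I without staying in it also had lower mean signals in the I/R grafts. This was so for all 17 assembly factors measured. Of these, 1 (5.88%) passed the unadjusted threshold, against 7.35% of all probe sets that were lower at it. The median log2 fold change of the factors was -0.27. Whether they differ from the subunits was not tested. In 9 of the 17 (52.9%) every I/R graft was below both non-I/R grafts, against 16.2% of all probe sets. The 1 was Ndufaf5, which modifies Ndufs7, at 6.76 and 6.82 against 6.53, 6.31 and 6.51, so that the log2 fold change was -0.34 (SE 0.086, adjusted p = 0.286 by limma). Ecsit, which acts in the assembly of the membrane arm, had -0.31 (SE 0.11, adjusted p = 0.343 by limma). Averaged over these factors the deviations were 0.25 and 0.13 in the non-I/R grafts and 0.04, -0.34 and -0.07 in the I/R grafts 2553, 2555 and 2557, so 2555 was the lowest here too. Of the subunits encoded by mitochondrial DNA, only mt-Nd3 could be named through a single symbol, and the signals of its brighter probe set were 13.20 and 13.01 against 12.91, 12.93 and 12.95. That log2 fold change was -0.17 (SE 0.066, adjusted p = 0.351 by limma), with groups that did not overlap.

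The nuclear subunits of the other complexes of the chain also had lower mean signals throughout. Complexes II and III, which feed and oxidise ubiquinol, had a median of -0.49 with 12 of 13 lower at the unadjusted threshold, complex IV, cytochrome oxidase, -0.45 with 10 of 11, and complex V, the ATP synthase, -0.48 with 11 of 15. Every I/R graft was below both non-I/R grafts in 13 of 13, 10 of 11 and 15 of 15 of these subunits. Of all probe sets, 16.2% had the groups apart in this way and 7.35% were lower at the unadjusted threshold. These comparisons use the same 5 grafts. The smallest p-values were those of Uqcrq and Uqcr10 in complex III with log2 fold changes of -0.43 (SE 0.054) and -0.40 (SE 0.069), Cox5a and Cox7a2 in complex IV with -0.56 (SE 0.10) and -0.45 (SE 0.082), and Atp5l and Atp5g3 in complex V with -0.49 (SE 0.095) and -0.68 (SE 0.14). At the unadjusted threshold 1601 of all 21789 probe sets were lower and 1664 higher. Among 15 regulators of mitochondrial genes 5 were lower and 3 higher at it, with a median of -0.17. The coactivator Ppargc1a, which had the lowest log2 fold change of the list at -1.55 (SE 0.32), stood opposite Nrf1 and the GABP subunit Gabpb1, which had 0.34 (SE 0.058, adjusted p = 0.282 by limma) and 0.37 (SE 0.053, adjusted p = 0.282 by limma). Signals of Nrf1 were 7.36 and 7.39 in the non-I/R grafts and 7.66, 7.67 and 7.81 in the I/R grafts.

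**Figure D5:**
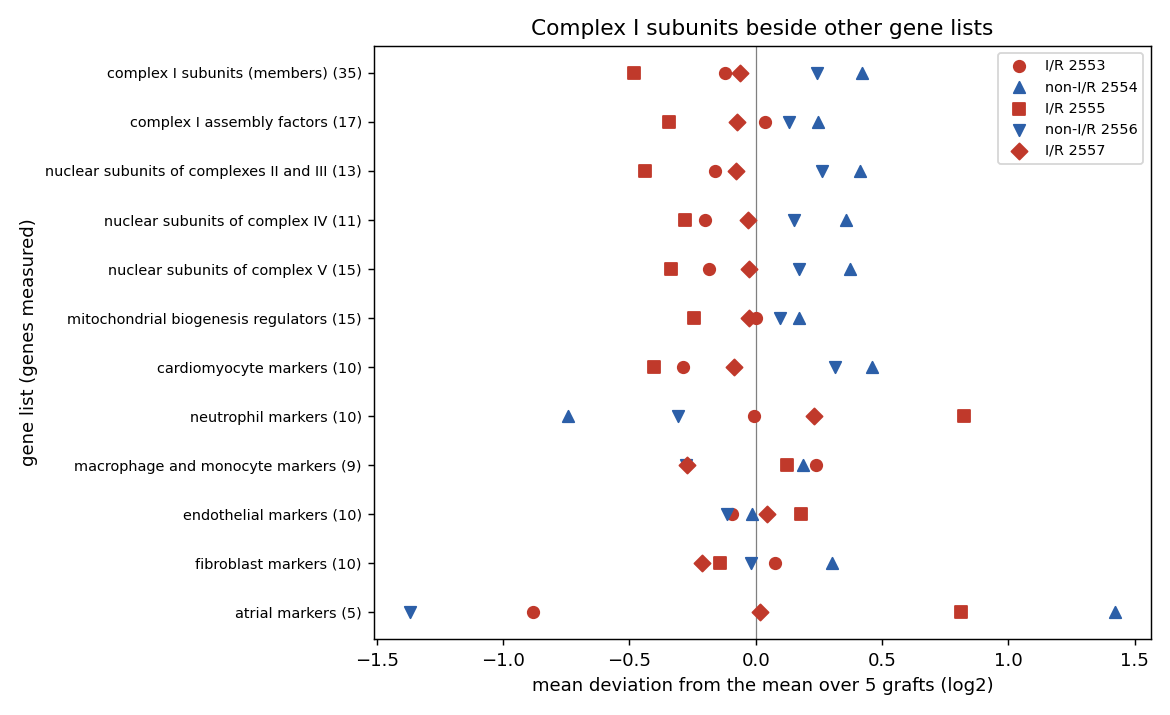
Average over the genes of a list of their log2 signal in a graft, less the 5-graft mean (x axis), with the lists and their number of measured genes on the y axis. Each mark is 1 graft, red for I/R (n = 3) and blue for non-I/R (n = 2). Complex I subunits run from -0.48 in 2555 to 0.42 in 2554, and neutrophil markers from -0.74 in 2554 to 0.82 in 2555.

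Markers of heart muscle were lower along with the complex I subunits, and their part in the result was not tested. All 10 cardiomyocyte markers had lower mean signals and 9 passed the unadjusted threshold, with a median log2 fold change of -0.52. The lowest value of any marker was 10.65, in Mybpc3, and the sums of their linear signals ranged from 82553 to 92325 in the non-I/R and from 52051 to 65195 in the I/R grafts. Mybpc3 and Pln had the smallest p, with -0.79 (SE 0.090) and -1.46 (SE 0.24). Set against the mean of these markers, the mean of the 35 subunits was -0.04 and -0.07 in non-I/R 2554 and 2556 and 0.17, -0.08 and 0.02 in I/R 2553, 2555 and 2557, so that on this relative scale, chosen after the signals were seen, the groups overlapped. Neutrophil markers went the other way, with 9 of 10 higher in mean and 4 past the unadjusted threshold (quartiles of the log2 fold change 0.86 and 1.13), and sums of 12246 to 14209 in the non-I/R and 14286 to 24195 in the I/R grafts. Mmp9 had 1.45 (SE 0.39) and Lcn2, the 1 that was lower, -0.59 (SE 0.14). Of all 21789 probe sets, 1664 were higher and 1601 lower at the unadjusted threshold. Markers of macrophages and monocytes, endothelium and fibroblasts had medians of 0.02, 0.13 and -0.20 with 1, 1 and 0 higher and 0, 0 and 1 lower, among them Ccr2 with 0.72 (SE 0.20), Erg with 0.37 (SE 0.091) and Dcn with -0.72 (SE 0.23). Cd14, Tek and Dpt, next by p in these lists, had 0.91, -0.33 and -0.82. Of the 5 atrial markers 0 passed the unadjusted threshold (Nppa -0.36, Bmp10 -1.05, Sln -0.16, Myl4 0.66, Myl7 0.69). Their mean deviation from the 5-graft mean was 1.42 in 2554 and 0.81 in 2555, against -1.37 to 0.02 in the other grafts. Myl7 and Myl4 were highest in 2555, at 11.08 and 12.19, whereas Bmp10 was lowest there, at 4.79. Without both 2554 and 2555 the median log2 fold change of the 35 subunits was -0.34. Their lower means in that fit follow from groups that did not overlap. In that comparison 2 I/R grafts stand against 1 non-I/R graft, which gives no spread of its own, and the part of the atrial markers in the result was not tested.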

How the data were processed

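RNA of 5 heart grafts was measured on Affymetrix Mouse Gene ST arrays. The authors deposited log2 values per probe set, made with RMA in Partek as far as the submitters' processing notes list tools (no version is listed). RMA subtracts background, forces equal distributions and combines the probes of a set, so a change shared by most genes can be lost. The genome build of the array annotation is not given in the sources used here, and coordinates printed are those of RefSeq promoters. Of 35556 probe sets, 21789 have 1 gene symbol in the platform annotation, 1621 have several and 12146 are not listed.

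The group was the only term of a linear model with moderated variances (lmFit, eBayes; limma 3.58.1, R 4.3.3; prior df 0.824), and p-values were adjusted over all 21789 by the Benjamini-Hochberg method. With 5 arrays, their number limits the precision. No set test was run. The members, lists and tests were chosen with earlier results of these data known. Genes given with values are the core subunits, the extremes and smallest p of each accessory group, Ndufab1, Ndufa4, Ndufa4l2 and the 2 smallest p of each other list. Other genes with values were chosen after their values were seen. Steps were tested on simulated data. Alternatives were other moderation, the methods' t-test, array weights, 3 normalizations, filters at log2 6 and 8, other probe sets and leaving out arrays. Plots used matplotlib 3.10.9 in Python 3.11.15.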

Additional observations from a re-analysis of the deposited data

How the results depend on the processing

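Under all 19 alternatives every complex I subunit that was measured had a lower mean in the I/R grafts, so none was higher at an unadjusted p under 0.05, and none passed an adjusted p of 0.05. Those past that unadjusted threshold numbered 23 by limma, 12 with the methods' t-test and 12 without both non-I/R 2554 and I/R 2555, and with 1 graft left out lay between 2 (2554 left out) and 24 (2555 left out). The count was 33 after quantile normalization and 32 with only the probe sets without tied values. The median log2 fold change lay between -0.66 and -0.40 with 1 graft left out and was -0.34 without both 2554 and 2555. Of all probe sets in the same fits, 7.35% were lower at that threshold by limma and 4.52% with the methods' t-test. It was 9.57% after quantile normalization and 15.7% of those without tied values. With 2553 or 2555 left out it was 6.77% or 5.76%. Fewer arrays leave fewer degrees of freedom. With 2554 or 2556 left out the lone non-I/R graft is assumed to vary like the I/R grafts. Counts from those fits say little about stability and are not given. The cause of the lower counts was not tested. Among named genes, Bmp10, an atrial marker with -1.05, turned to 0.19 when 2554 was left out and to 0.29 without both 2554 and 2555, and it was -2.30 when 2556 was left out. No paired analysis was possible because the labels give no replicate numbers.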
